A study of Bos taurus and Bos indicus with 12 samples.

Results

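The difference between Brahman and Holstein-Friesian cattle in how skin gene expression differed between tick-infested and tick-naive animals was measured for 24016 probe sets. For each probe set the infested minus naive difference was taken in Brahman animals and the same quantity in Holstein-Friesian animals was subtracted from it. The result is called the breed difference here, and a positive value means a higher change in Brahman animals. All 12 arrays of the series, 1 for each female animal, enter this quantity. The arrays fall into 4 groups of 3: naive Holstein-Friesian aged 12 months, naive Brahman aged 18 months, infested Holstein-Friesian aged 6 months and infested Brahman aged 6 months. Naive animals had no earlier exposure to the cattle tick Rhipicephalus microplus, and infested animals had gone through repeated heavy infestations. Full-thickness skin was taken with a punch of 8 mm, in infested animals over attached larvae. Within each breed, infestation cannot be told apart from age, by 6 months in Holstein-Friesian and 12 months in Brahman animals. These age gaps are unequal, so the breed difference itself cannot be told apart from age either. The infested groups were of equal age.

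Holstein-Friesian cattle descend from taurine stock and are mostly susceptible to this tick, while Brahman cattle carry zebu ancestry and usually become resistant. A feeding larva cuts into the dermis and releases saliva, and the host answers with inflammation, leukocyte entry, antibody production and repair of the matrix. Dermal fibroblasts lay down that matrix as procollagen, which is folded in the endoplasmic reticulum, trimmed outside the cell and spaced by small leucine-rich proteoglycans.

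All values are log2 RMA signals, where 1 log2 is a 2-fold difference. The n is 3 arrays per group, except where arrays are said to be left out. A gene is said to pass when its adjusted p from limma, corrected by Benjamini-Hochberg over all 24016 probe sets, is below 0.05. The p-values measure the spread between animals of a group. Tissue identity was checked with 8 skin markers: DSP was not measured by a named probe set, and KRT5, KRT14, KRT10, DSG1, COL1A1, COL3A1 and DCN lay at or above the 98.9th percentile of every array. RNA integrity was read as the mean 5' minus 3' signal of 5 control transcripts, and a lower index means weaker 5' signal. It averaged -1.13 ± 0.29 (SD) in naive Holstein-Friesian, -0.94 ± 0.10 in naive Brahman and -1.57 ± 1.04 in infested Holstein-Friesian arrays. Infested Brahman arrays averaged -3.18 ± 1.52. Infested Brahman 1 had the lowest index at -4.91 and infested Holstein 1 the next lowest at -2.73. The index and the groups move together, and the part of the index in the differences was not tested. Because biopsies are mixtures, fewer cells of a type and less RNA per cell cannot be told apart.

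PCOLCE, which enhances the trimming of procollagen by its C-proteinase, was the only probe set that passed, 1 of 24016 (0.00416%), with the higher change in Brahman animals. No probe set passed with a lower Brahman change. At an unadjusted limma p under 0.05 there were 1792 probe sets (7.46%), 969 with a higher Brahman change (4.03%) and 823 with a lower one (3.43%). The median breed difference over all probe sets was 0.05 log2, and 55.8% were above 0. Differences of at least 1 log2 were commoner downward, with 884 lower against 345 higher. The largest ran from -6.03 to 4.04 log2. These sizes have to be read against a wide error, since the median standard error was 0.289 log2, 1.41 times the 0.205 of a change within a breed. Within the breeds themselves, limma called 2292 probe sets higher (9.54%) and 2461 lower (10.2%) in infested Brahman animals, and 644 higher (2.68%) and 562 lower (2.34%) in infested Holstein-Friesian animals. A gene that passed in 1 breed and missed in the other is thus not shown to differ between them.

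**Figure D1:**
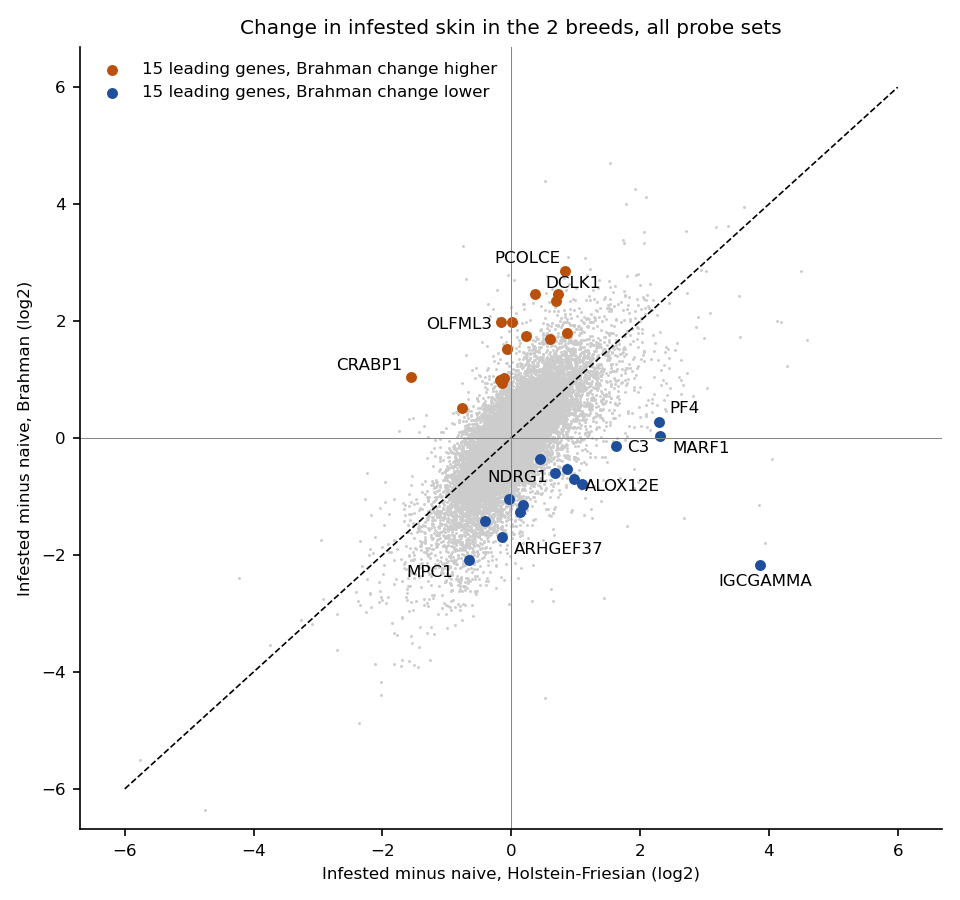
Infested minus naive difference in Holstein-Friesian (horizontal, log2) against that in Brahman animals (vertical, log2) for 24016 probe sets, each a grey point, with equality as the dashed line. The 15 genes of smallest p on each side are coloured; PCOLCE, at 0.84 and 2.85, is the only one past the threshold, and IGCGAMMA, at 3.86 and -2.17, lies farthest from the line.

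Single arrays weighed unequally in the breed difference. Of the 1792 probe sets with an unadjusted p under 0.05, 405 (22.6%) shrank most when infested Holstein 2 was left out and 379 (21.1%) when infested Brahman 1 was left out. Among the 1229 probe sets with a difference of at least 1 log2 the shares were 36.2% and 25.7%. The next array was naive Brahman 3, with 7.73% of the latter set. Infested Brahman 1 and infested Holstein 1 lay farthest from their own groups, with median absolute deviations of 0.237 and 0.187 log2 over all probe sets. Those 2 arrays also had the lowest index. Without both of them, 2 arrays were left in each infested group, and the median standard error was 0.251 log2, against 0.289 with all 12 arrays. In that fit limma called 1131 probe sets (4.71%), 337 higher (1.4%) and 794 lower (3.31%). Of these 1131, 1127 had the same sign with all 12 arrays and 491 had an unadjusted p under 0.05 there. Of the 30 genes with the smallest p described here, 15 on each side, 27 passed without both arrays, and the exceptions were MARF1, ANGPTL4 and ALOX12E. These genes were chosen by their p in all 12 arrays, which include every array kept here, so this count is no independent check. With the index as a covariate, none of these 30 genes and none of the list genes described below passed. Leaving out infested Holstein 1 alone gave 390 calls, 94 higher and 296 lower, and all 390 were among the 1131. Leaving out infested Brahman 1 alone gave 13, and the remaining single removals gave between 0 and 15.

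**Figure D2:**
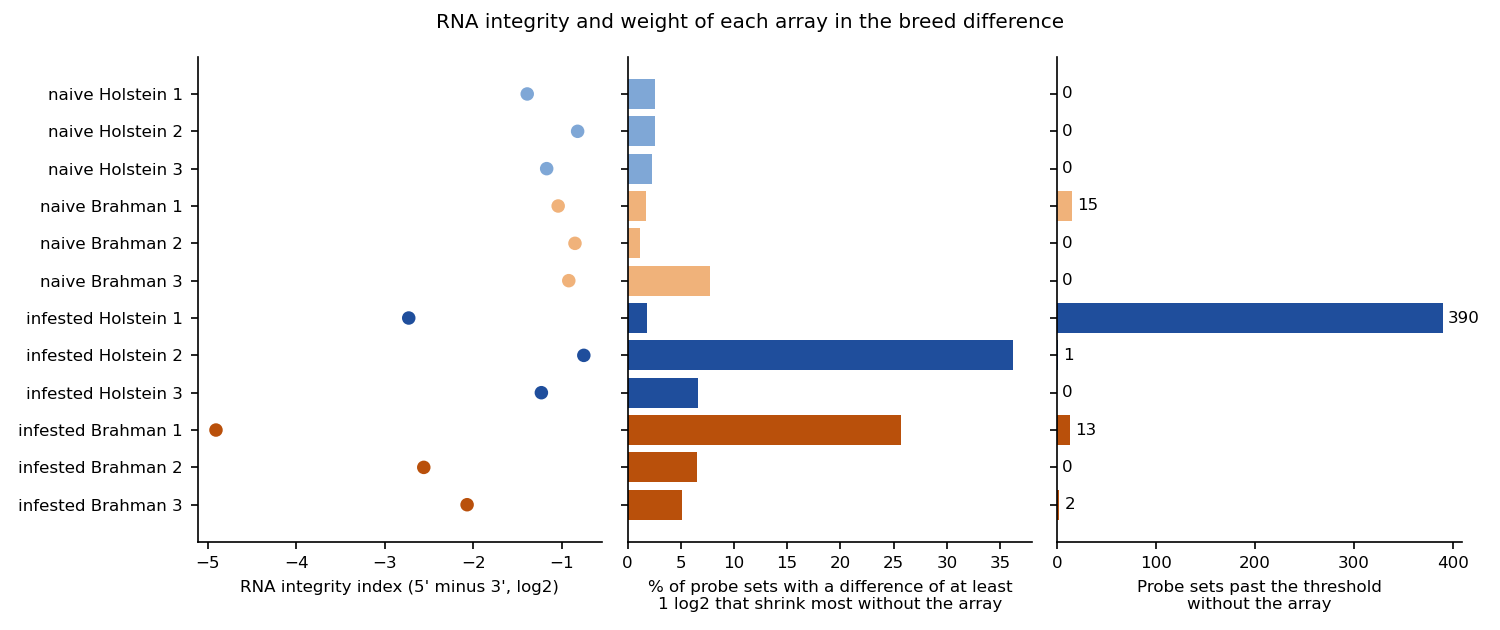
For each of the 12 arrays, the RNA integrity index (left, log2), the share of the 1229 probe sets with a breed difference of at least 1 log2 that shrink most without that array (middle, percent), and the probe sets past the threshold without it (right). Infested Holstein 2 and infested Brahman 1 hold 36.2% and 25.7% of the large differences, while removing infested Holstein 1 gives 390 calls.

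The clearest difference was that of the matrix gene PCOLCE. PCOLCE stood at 9.61, 9.61 and 9.67 log2 in naive and 10.64, 10.22 and 10.56 in infested Holstein-Friesian arrays 1 to 3. In Brahman arrays it stood at 8.96, 8.95 and 9.17 without and 11.71, 11.98 and 11.95 with infestation. No group overlapped another: naive Brahman arrays were the lowest and infested Brahman arrays the highest. PCOLCE rose in both breeds, by 2.85 log2 or 7.21-fold in Brahman animals (adjusted p = 1.31e-05) and by 0.84 log2 or 1.79-fold in Holstein-Friesian animals (adjusted p = 0.0139). The breed difference was 2.01 ± 0.20 log2 (SE, 95% interval 1.56 to 2.46, adjusted p = 0.019 by limma), a 4.03-fold larger rise in Brahman animals. The second PCOLCE probe set gave 1.19, with an adjusted p of 0.662. Its infested Brahman values were 8.99, 10.63 and 10.48, and without the 2 low-index arrays it gave 1.97 (adjusted p = 0.0042). Across the 12 single-array removals the difference of the first probe set held between 1.88 and 2.09. It passed in 5 of them, but not without any 1 of naive Holstein 1, 2 or 3, naive Brahman 2 or 3, infested Holstein 3 or infested Brahman 2. With the integrity index as a covariate it was 2.02 and did not pass (adjusted p = 0.0666), and without the 2 low-index arrays it was 2.18 (adjusted p = 0.00169).

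The list of fibrillar collagens and their processing enzymes had 24 measured members of 32. PCOLCE alone passed. At an unadjusted p under 0.05 there were 9 members with a higher Brahman change and 1 with a lower one, against 4.03% and 3.43% of all probe sets. The median breed difference was 0.56 log2, against 0.05 over all probe sets. Within the breeds 10 members passed upward in Brahman animals and 2 in Holstein-Friesian animals, and none passed downward. Over all probe sets 9.54% passed upward in Brahman and 2.68% in Holstein-Friesian animals. The list level, the mean over members relative to the naive arrays, was 0.31, 0.65 and 0.78 in infested Brahman arrays 1 to 3 and 0.32, 0.18 and 0.28 in infested Holstein-Friesian arrays. Infested Brahman 1 thus lay among the Holstein-Friesian arrays, and the list median was 0.66 without it and 0.31 without infested Brahman 3.

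COL3A1, the fibril-forming type III collagen, stood at 13.62, 13.56 and 13.41 in naive and 14.17, 13.74 and 13.97 in infested Holstein-Friesian arrays. Brahman arrays had 13.12, 13.35 and 13.16 without and 14.30, 14.39 and 14.41 with infestation. Again no group overlapped another, with the Brahman groups at both ends. The breed difference was 0.73 ± 0.20 (SE, adjusted p = 0.498). COL5A2, a type V collagen chain that regulates fibril width, reached 9.67, 10.22 and 10.36 in infested Brahman arrays against 8.98, 8.75 and 9.28 in infested Holstein-Friesian arrays. Its naive groups overlapped, at 7.70, 7.83 and 7.0 in Brahman and 7.51, 7.72 and 7.74 in Holstein-Friesian arrays. COL5A2 rose in both breeds, by 2.57 in Brahman and 1.35 in Holstein-Friesian animals, and the breed difference of 1.23 ± 0.35 did not pass (adjusted p = 0.561). COL21A1, a fibril-associated collagen, stood at 6.97, 7.52 and 6.98 in naive Brahman arrays, below all others. It reached 9.12, 9.52 and 8.81 in infested Brahman arrays, while Holstein-Friesian arrays had 8.62, 8.43 and 8.50 without and 8.76, 8.18 and 8.64 with infestation. COL21A1 rose by 1.99 in Brahman animals and its change in Holstein-Friesian animals was 0.01, a breed difference of 1.98 ± 0.32 (adjusted p = 0.206). Without the 2 low-index arrays COL21A1 differed by 2.12 (adjusted p = 0.0117), COL3A1 by 0.87 (adjusted p = 0.0342) and COL5A2 by 1.42 (adjusted p = 0.0497), and all of them passed. With the index as a covariate none of them passed (adjusted p = 0.27, 0.524 and 0.356).

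FKBP7, GPX7 and KDELR3, which encode proteins of the endoplasmic reticulum, were among the 15 genes with the smallest p on the higher side, and none of them passed with all arrays. Each passed without the 2 low-index arrays, FKBP7 at 1.83 (adjusted p = 0.0139), GPX7 at 1.87 (adjusted p = 0.00795) and KDELR3 at 1.31 (adjusted p = 0.0108). With the index as a covariate none of them passed (adjusted p = 0.229, 0.272 and 0.27). FKBP7, a prolyl isomerase of that compartment, stood at 6.73, 6.72 and 6.79 in naive and 9.06, 9.46 and 9.11 in infested Brahman arrays. In Holstein-Friesian arrays it stood at 6.95, 7.71 and 7.30 without and 8.05, 7.83 and 8.24 with infestation, so that all groups were separate. The FKBP7 difference was 1.74 ± 0.28 (adjusted p = 0.206). GPX7, a peroxidase that supports oxidative folding, was 8.81, 9.11 and 8.73 in infested Brahman against 7.96, 7.23 and 7.63 in infested Holstein-Friesian arrays, with a difference of 1.65 ± 0.28. Its naive groups met, at 6.35, 6.75 and 6.50 in Brahman and 6.73, 7.05 and 6.95 in Holstein-Friesian arrays. KDELR3, a receptor that returns escaped chaperones to the reticulum, differed by 1.16 ± 0.20, rising in Brahman animals by 1.00 with a Holstein-Friesian change of -0.17. FKBP10, a chaperone of procollagen, moved more in size with the low-index arrays. Its infested values were 8.35, 9.56 and 9.29 in Brahman and 8.94, 7.44 and 7.86 in Holstein-Friesian arrays, and array 1 of each group crossed toward the other breed. The FKBP10 difference was 2.11 ± 0.57 with all arrays (adjusted p = 0.498) and 2.89 without those 2 (adjusted p = 0.00513). It was 2.14 with the index as a covariate and did not pass (adjusted p = 0.491).

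Small leucine-rich proteoglycans, which bind collagen fibrils and set their spacing, had 11 measured members of 14. None passed. The count at an unadjusted p under 0.05 was 4 higher and 0 lower, OGN, LUM, KERA and FMOD, against 4.03% and 3.43% of all probe sets. The median over the list was 0.17. OGN, also called osteoglycin, stood at 6.82, 7.12 and 7.56 in naive and 11.31, 11.28 and 10.91 in infested Brahman arrays. Holstein-Friesian arrays had 8.39, 7.35 and 8.62 without and 10.02, 9.56 and 10.10 with infestation. The infested groups were separate and the naive groups overlapped. OGN rose by 4.0 in Brahman and 1.78 in Holstein-Friesian animals, a difference of 2.22 ± 0.45 (adjusted p = 0.293). KERA, or keratocan, differed by 2.04 ± 0.66, with infested values of 11.39, 12.65 and 12.30 in Brahman and from 10.07 to 11.16 in Holstein-Friesian arrays. LUM, or lumican, differed by 1.21 ± 0.36, and here the infested groups overlapped while the naive ones did not. Naive Brahman arrays had 9.38, 8.72 and 8.58 of LUM and naive Holstein-Friesian arrays 9.48, 10.13 and 9.99.

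Matricellular and elastic fibre genes pointed both ways. Of 27 measured members, 2 were higher and 2 lower at an unadjusted p under 0.05, against 4.03% and 3.43% of all probe sets. The median of -0.07 changed sign under 4 of 20 alternative settings, among them the index covariate and the removal of the 2 low-index arrays. CCDC80, a secreted matrix protein, reached 12.89, 13.10 and 13.01 in infested Brahman arrays and 12.00, 10.82 and 11.22 in infested Holstein-Friesian arrays. Its difference was 1.94 ± 0.38 (adjusted p = 0.258) in the brighter of 2 probe sets and -0.10 in the other. EFEMP2, a fibulin needed for elastic fibres, differed by 1.23 ± 0.32. THBS4, a thrombospondin, went the other way: it rose in Holstein-Friesian animals by 2.41, to 10.33, 10.92 and 9.65, and its Brahman change was 0.47, a difference of -1.94 ± 0.59. Matrix proteases and their inhibitors had a median of -0.58. At an unadjusted p under 0.05, 0 of 24 members were higher and 4 lower (4.03% and 3.43% of all probe sets). Those 4 were the shedding protease ADAM10 at -1.17, the inhibitor TIMP4 at -1.11 and the lysosomal cathepsins CTSB at -0.68 and CTSZ at -0.65. Probe sets of the same gene disagreed, from -2.08 to -0.38 for ADAM10, from -1.11 to 0.25 for TIMP4 and from -0.68 to 0.76 for CTSB.

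**Figure D3:**
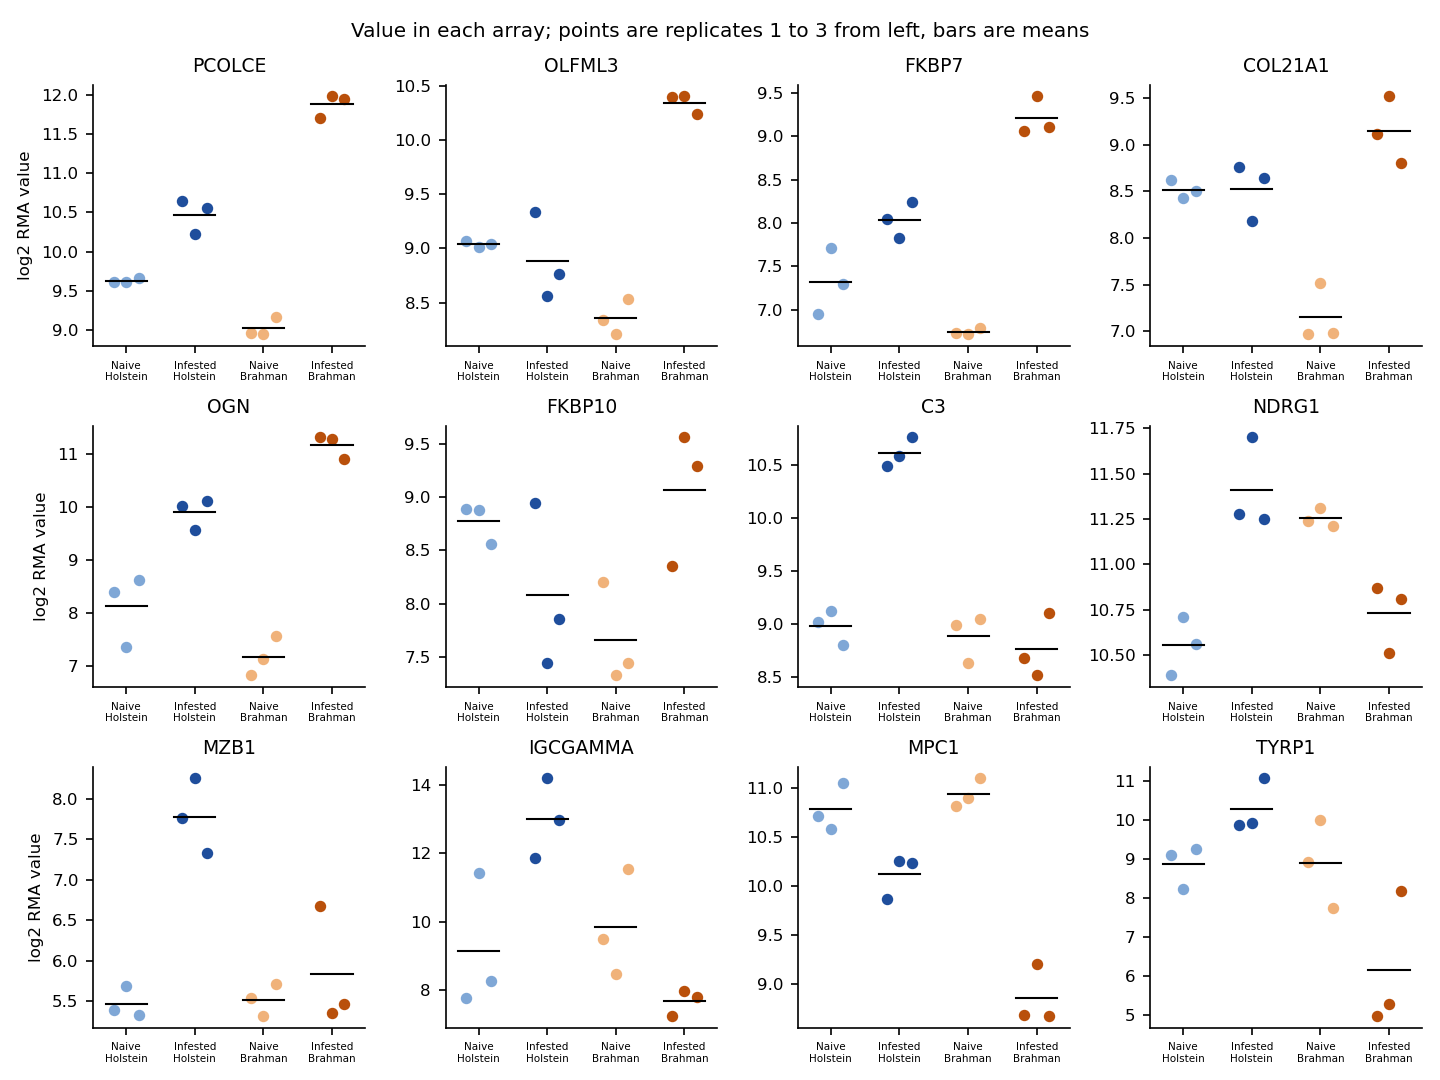
Log2 RMA value of 12 genes in each array, with replicates 1 to 3 from left to right in each group and the group mean as a bar; the vertical axes differ in range and do not start at 0. PCOLCE, OLFML3, FKBP7 and OGN are highest in all 3 infested Brahman arrays, C3, MZB1 and IGCGAMMA are highest in all 3 infested Holstein-Friesian arrays, and TYRP1 is low in infested Brahman 1 and 2 only.

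The other leading genes with a higher Brahman change came from several families. OLFML3, a secreted olfactomedin-domain protein of the matrix, stood at 8.34, 8.21 and 8.53 in naive and 10.39, 10.40 and 10.24 in infested Brahman arrays. Holstein-Friesian arrays had 9.07, 9.01 and 9.04 without and 9.33, 8.56 and 8.76 with infestation, so the infested Brahman arrays lay above all others and the 2 Holstein-Friesian groups overlapped. OLFML3 had the second smallest p, with a difference of 2.14 ± 0.26 (SE, 95% interval 1.57 to 2.71, adjusted p = 0.0572), and passed under cyclic loess (adjusted p = 0.0283) and without the 2 low-index arrays, at 2.34 (adjusted p = 0.0016). Removing infested Holstein 1, naive Brahman 1 or infested Brahman 1 also brought it past the threshold. With the index as a covariate OLFML3 did not pass (adjusted p = 0.152). NREP, a regulator of cell migration and repair, differed by 1.51 ± 0.25 and DCLK1, a microtubule-associated kinase, by 2.09 ± 0.37. In both, every infested Brahman array exceeded every other array. FZD4, a receptor for WNT ligands, rose in both breeds without overlap of any infested and naive arrays, by 1.79 in Brahman and 0.86 in Holstein-Friesian animals, a difference of 0.93 ± 0.17. A second probe set of NREP gave 0.25 and of FZD4 0.05, at low mean signals of 4.41 and 4.10.

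Among the remaining leading genes on the higher side, CRABP1 and TSPAN18 had naive groups that lay farther apart between the breeds than the infested groups. CRABP1, which binds retinoic acid in the cytosol, fell by 1.56 in Holstein-Friesian animals, from 7.62, 8.16 and 7.48 to 6.28, 5.66 and 6.65. Naive Brahman arrays had 6.25, 6.05 and 6.15 and infested Brahman arrays 6.42, 7.43 and 7.76, a difference of 2.61 ± 0.48 (adjusted p = 0.226). Infested Brahman 1 lay lowest of its group, and without it the difference was 3.00 and passed. DSC2, a cadherin of desmosomes, stood at 10.65, 9.90 and 10.06 in infested Brahman arrays, where every other array was at or below 9.01. Its difference of 1.58 ± 0.29 was 1.35 without infested Brahman 1. RPS12, a ribosomal protein, ranked high through 1 of 4 probe sets, at 1.09 ± 0.20, while the brightest of the 4 gave 0.03. GYG1, the primer of glycogen synthesis, differed by 1.09 ± 0.20, and by at least 0.96 in every single-array removal. The tetraspanin TSPAN18 differed by 1.27 ± 0.24 in 1 of 3 probe sets, which ranged down to 0.47. C11H2orf49 differed by 1.15 ± 0.21 in 1 probe set and by 0.42 in the other.

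On the lower side, complement C3, the convergence point of the complement cascade, had the smallest p. It stood at 9.02, 9.12 and 8.80 in naive and 10.49, 10.58 and 10.76 in infested Holstein-Friesian arrays. Brahman arrays had 8.99, 8.63 and 9.05 without and 8.68, 8.52 and 9.10 with infestation. The infested Holstein-Friesian arrays lay above all the rest, and the 3 other groups overlapped. C3 rose by 1.63 in Holstein-Friesian animals (adjusted p = 0.00278), its Brahman change was -0.13, and the breed difference was -1.76 ± 0.26 (adjusted p = 0.13), or -1.78 without the 2 low-index arrays (adjusted p = 0.0111). With the index as a covariate C3 differed by -1.62 and did not pass (adjusted p = 0.229). The 2 other C3 probe sets gave -0.95 and -0.56, and the brightest of the 3, with the smallest difference, had a change of 0.98 in Brahman and 1.54 in Holstein-Friesian animals. The complement list as a whole had a median of -0.12 over 27 members, which was 0.00 without infested Brahman 2.

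B and plasma cell genes had 15 measured members of 30. None passed, and 4 members lay above 0 and 11 below. At an unadjusted p under 0.05, 4 were lower and 0 higher (3.43% and 4.03% of all probe sets). The median was -0.57. The list level was 0.53, 0.81 and 0.38 in infested Holstein-Friesian arrays against 0.23, -0.61 and -0.46 in infested Brahman arrays. Naive arrays spanned -0.22 to 0.18 in Holstein-Friesian and -0.30 to 0.49 in Brahman animals. MZB1, a folding factor of antibody-secreting cells, stood at 7.76, 8.25 and 7.33 in infested Holstein-Friesian arrays and at 6.68, 5.36 and 5.47 in infested Brahman arrays. Naive values were 5.39, 5.69 and 5.33 in Holstein-Friesian and 5.54, 5.32 and 5.71 in Brahman arrays, so only infested Brahman 1 of the Brahman arrays exceeded the naive range. MZB1 rose by 2.31 in Holstein-Friesian animals and the breed difference was -2.00 ± 0.47 (adjusted p = 0.425). It was -2.42 and passed without infested Brahman 1. IGCGAMMA, the constant region of immunoglobulin gamma heavy chains, had the largest difference of all probe sets at -6.03 ± 1.39 (SE, 95% interval -9.07 to -2.98, adjusted p = 0.421). Its naive values spread widely, at 7.78, 11.41 and 8.26 in Holstein-Friesian and 9.49, 8.47 and 11.55 in Brahman arrays. Infested values were 11.87, 14.19 and 12.97 in Holstein-Friesian, above every other array, and 7.24, 7.96 and 7.80 in Brahman arrays, around or below the lowest naive array. Its second probe set gave -4.98. DERL3, of the degradation machinery of the reticulum, differed by -1.09 ± 0.45 and fell in both breeds. PIGR, which carries polymeric antibody across epithelia, differed by -1.43 ± 0.60 and fell in Brahman animals.

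MHC class II genes present peptides to helper T cells and are highly polymorphic in cattle. Their median was -0.60 over 20 measured members. At an unadjusted p under 0.05, 0 were higher and 5 lower (4.03% and 3.43% of all probe sets). No member passed. BOLA-DYB, a class II beta chain, stood at 6.63, 6.72 and 6.50 in naive and 7.65, 8.17 and 7.32 in infested Holstein-Friesian arrays. Brahman arrays had 6.27, 5.98 and 6.56 without and 4.86, 5.82 and 5.75 with infestation. Infested Holstein-Friesian arrays were all above and infested Brahman arrays all below the naive arrays, and the difference was -1.89 ± 0.40 (adjusted p = 0.32). BOLA-DQA1, a class II alpha chain, differed by -1.90 ± 0.55, with most of the distance between the naive groups: 6.76, 6.94 and 6.56 in Holstein-Friesian against 7.95, 8.95 and 8.40 in Brahman arrays. Infested values of BOLA-DQA1 overlapped, at 7.28, 9.12 and 8.33 in Holstein-Friesian and 8.26, 7.92 and 7.90 in Brahman arrays. Whether breed-specific alleles bind these probes equally was not tested. BOLA-DYA differed by -0.87 ± 0.31 and the costimulatory receptor CD40 by -0.56 ± 0.21.

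Macrophage and dendritic cell genes had a median of -0.63 over 16 measured members. At an unadjusted p under 0.05, 0 were higher and 4 lower (4.03% and 3.43% of all probe sets). None passed the breed difference. Within the breeds 5 rose and 2 fell in Brahman animals, against 9.54% and 10.2% of all probe sets. In Holstein-Friesian animals 7 rose and 2 fell, against 2.68% and 2.34%. The list level was 0.79, 0.39 and 0.54 in infested Brahman arrays and 0.92, 1.21 and 0.79 in infested Holstein-Friesian arrays, which therefore met at infested Brahman 1 and infested Holstein 3. CD5L, a secreted survival factor of macrophages, rose by 2.42 in Brahman and 3.54 in Holstein-Friesian animals. Its infested values were separate, at 7.44, 7.78 and 7.47 in Brahman and 9.03, 9.06 and 8.78 in Holstein-Friesian arrays, a difference of -1.12 ± 0.39 (adjusted p = 0.63). LY75, an endocytic receptor of dendritic cells, fell by 3.87 in Brahman animals and fell by 1.82 in Holstein-Friesian animals. Infested Brahman arrays had 3.48, 3.47 and 3.67 of LY75 and infested Holstein-Friesian arrays 3.80, 5.75 and 4.87, and the difference was -2.05 ± 0.65. The lectin receptor CD209 differed by -1.66 ± 0.72, or by -1.10 without infested Brahman 1.

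CXC chemokines, which draw neutrophils and lymphocytes, had a median of -0.27 over 12 measured members. At an unadjusted p under 0.05, 1 was higher and 2 were lower (4.03% and 3.43% of all probe sets). PF4, released by platelets, stood at 7.45, 7.19 and 7.92 in infested Holstein-Friesian arrays and 6.47, 5.58 and 5.07 in infested Brahman arrays. Naive values were 5.16, 5.41 and 5.12 in Holstein-Friesian and 5.34, 5.18 and 5.75 in Brahman arrays. PF4 rose in Holstein-Friesian animals by 2.29, its Brahman change was 0.28, and the difference was -2.01 ± 0.45 (adjusted p = 0.39). It was -2.39 and passed without infested Brahman 1. CXCL2, a neutrophil attractant, rested on 1 animal to a greater degree: infested values were 7.44, 10.83 and 7.24 in Holstein-Friesian and 6.22, 6.94 and 4.16 in Brahman arrays. Its difference of -3.04 ± 1.24 became -1.88 without infested Holstein 2. CXCL8, or interleukin 8, differed by -1.81 ± 1.19, and by -0.93 without infested Brahman 3, where it was at 4.78 against 7.51 and 7.37 in the rest of that group. CXCL13, the attractant of B cells, was the member with a higher Brahman change. It stood at 5.76, 7.28 and 7.18 in infested Brahman and 4.36, 3.93 and 4.25 in infested Holstein-Friesian arrays, but naive Brahman 3 was at 5.81 as well. CXCL13 rose by 2.20 in Brahman animals, and the breed difference was 2.00 ± 0.74 (adjusted p = 0.657).

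Inflammatory cytokines and their receptors had a median of -0.38 over 25 measured members, and -0.04 without infested Holstein 2. The list level was 0.02, 1.06 and 0.12 in infested Holstein-Friesian arrays against 0.09, 0.05 and 0.06 in infested Brahman arrays, so infested Holstein 2 stood alone. IL33, an alarmin of epithelial cells, differed by -1.07 ± 0.44 in 1 of 3 probe sets, which ranged up to 0.09, and the suppressive cytokine IL10 by -0.62 ± 0.26. The same array dominated the immediate early genes, transcription factors and regulators that respond within minutes of a stimulus. Their level was 1.62 in infested Holstein 2, between -0.21 and 0.01 in the other 5 infested arrays, and 0.55 and 0.32 in naive Brahman 2 and 3. Their median of -0.74 over 21 members was -0.20 without infested Holstein 2. ZFP36, which destabilises cytokine messages, was 8.56, 11.73 and 9.27 in infested Holstein-Friesian and 6.90, 8.38 and 8.93 in infested Brahman arrays. Its difference moved from -2.32 ± 1.02 to -1.39 without infested Holstein 2.

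**Figure D4:**
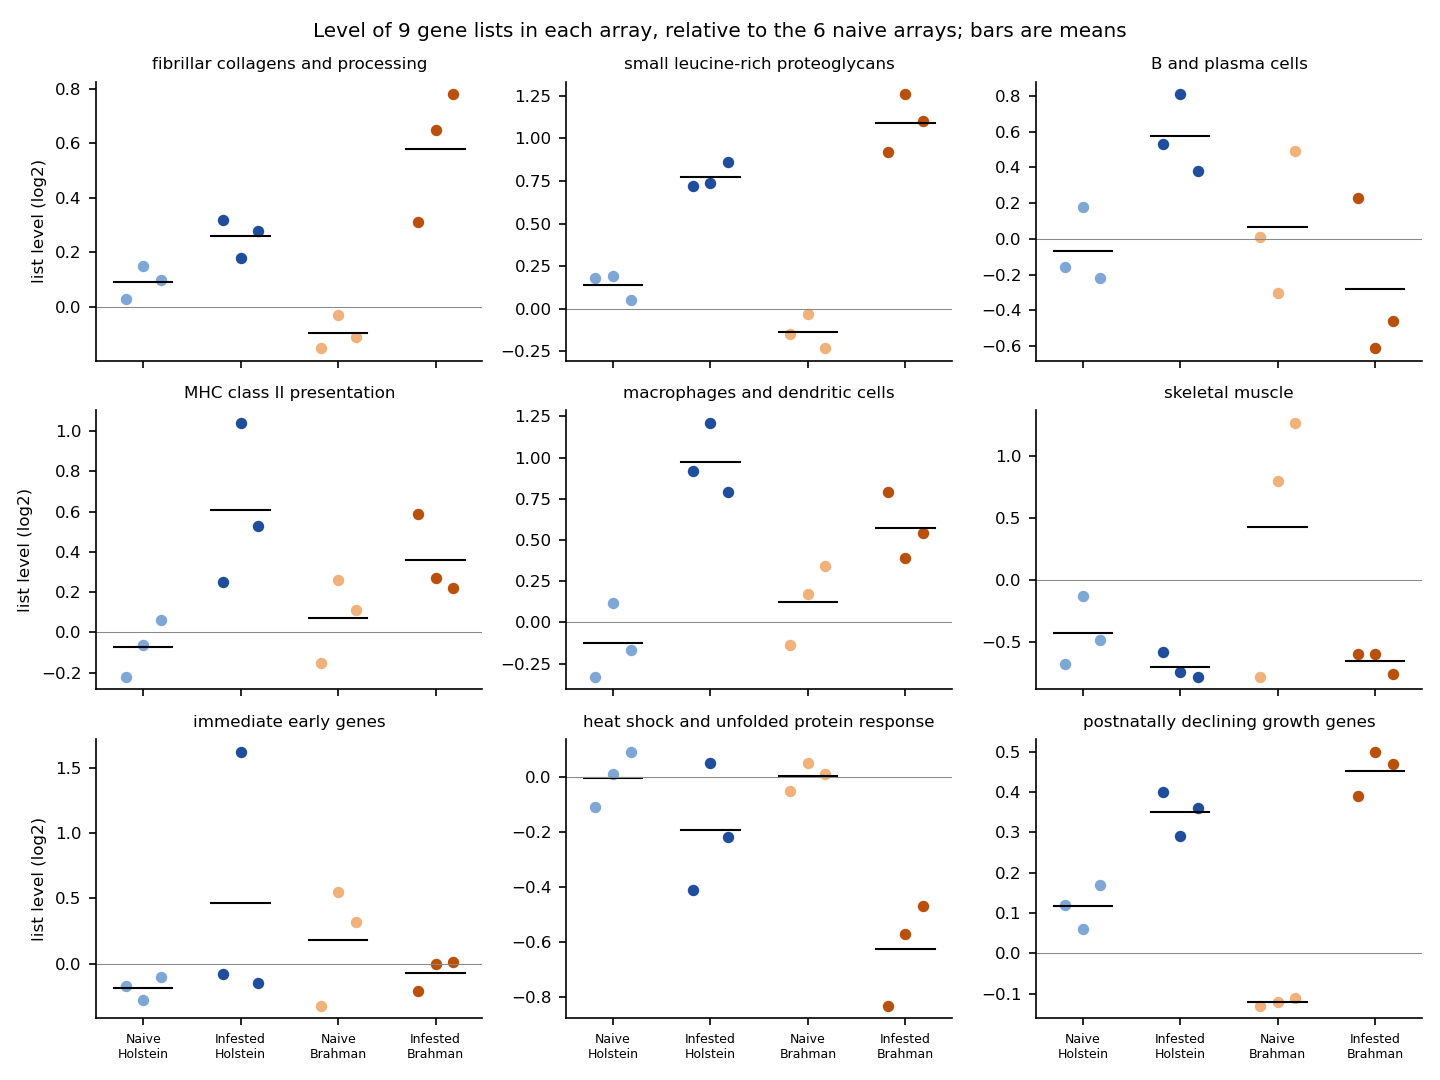
Level of 9 gene lists in each array (log2, mean over members relative to the 6 naive arrays), with replicates 1 to 3 from left to right and group means as bars; the vertical axes differ in range. Infested Holstein 2 stands alone at 1.62 for immediate early genes, and naive Brahman 2 and 3 stand alone at 0.80 and 1.27 for skeletal muscle.

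Skeletal muscle genes differed in the naive animals. The median was -0.67 over 33 measured members, and none passed. At an unadjusted p under 0.05, 1 was higher and 4 were lower (4.03% and 3.43% of all probe sets). The list level was -0.78, 0.80 and 1.27 in naive Brahman arrays 1 to 3, and between -0.78 and -0.13 in all other arrays. TNNC2, a troponin of fast muscle, stood at 5.74, 8.29 and 8.13 in naive Brahman arrays and between 5.34 and 5.88 in every other array. MYBPC1, a myosin-binding protein, stood at 5.59, 6.90 and 7.84 in naive Brahman arrays. Without naive Brahman 1 the list median was -1.04, and 12 probe sets passed downward, among them TNNC2 and TNNI2, while without naive Brahman 3 the median was -0.26. The part of this muscle signal in other differences was not tested. SAA3, an acute phase protein, had the same shape, with 8.12, 11.02 and 10.87 in naive Brahman arrays and 7.34, 6.33 and 8.63 in infested ones, a difference of -2.34 ± 1.07.

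Enzymes of amino acid and xenobiotic metabolism had a median of -0.46 over 38 measured members. At an unadjusted p under 0.05, 2 were higher and 7 lower (4.03% and 3.43% of all probe sets). In Brahman animals 18 of them fell and 1 rose, against 10.2% and 9.54% of all probe sets. In Holstein-Friesian animals 8 fell and 1 rose, against 2.34% and 2.68%. CYP39A1, an oxysterol hydroxylase, was an exception that rose in both breeds, by 2.36 in Brahman and 0.99 in Holstein-Friesian animals. Infested values were 8.93, 8.88 and 8.31 in Brahman and 7.70, 6.73 and 7.11 in Holstein-Friesian arrays, a difference of 1.37 ± 0.34 (adjusted p = 0.472). EPHX2, an epoxide hydrolase, differed by -1.85 ± 0.48 in 1 probe set and by -0.22 in the other, the fatty acid hydroxylase CYP4A11 by -1.06 ± 0.26 and the glutathione transferase MGST2 by -1.10 ± 0.30. Citrate cycle genes had a median of -0.38 over 24 members, or -0.22 without infested Brahman 1. At an unadjusted p under 0.05, 0 were higher and 2 lower (4.03% and 3.43% of all probe sets). MPC1, which brings pyruvate into mitochondria, stood at 10.72, 10.58 and 11.05 in naive and 9.87, 10.26 and 10.23 in infested Holstein-Friesian arrays. Brahman arrays had 10.82, 10.90 and 11.10 without and 8.68, 9.20 and 8.67 with infestation. The naive groups overlapped and the infested Brahman arrays were the lowest of all. MPC1 fell by 2.09 in Brahman animals, its Holstein-Friesian change was -0.66, and the difference was -1.43 ± 0.27 (adjusted p = 0.226), or -1.47 without the 2 low-index arrays (adjusted p = 0.018). With the index as a covariate MPC1 did not pass (adjusted p = 0.338). SDHC, a subunit of succinate dehydrogenase, differed by -0.61 ± 0.18.

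Heat shock and unfolded protein response genes had a median of -0.46 over 38 measured members. At an unadjusted p under 0.05, 0 were higher and 6 lower (4.03% and 3.43% of all probe sets). Their level was -0.83, -0.57 and -0.47 in infested Brahman and -0.41, 0.05 and -0.22 in infested Holstein-Friesian arrays, in the same order as the integrity index within each of the 2 groups. The median was -0.16 with the index as a covariate. HSPH1, a large heat shock protein, stood at 9.86, 9.02 and 9.47 in infested Brahman and 10.05, 11.41 and 10.59 in infested Holstein-Friesian arrays. Its difference was -1.39 ± 0.44 in 1 of 4 probe sets, which ranged up to 0.16. HERPUD1, of the degradation machinery of the reticulum, differed by -0.88 ± 0.29 and the stress transcription factor ATF4 by -0.82 ± 0.32. The HERPUD1 difference had the opposite sign to those of FKBP7 and FKBP10, which also act in the reticulum.

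Melanocyte genes had a median of -0.36 over 15 measured members. At an unadjusted p under 0.05, 0 were higher and 3 lower (4.03% and 3.43% of all probe sets). TYRP1, a pigment enzyme, stood at 9.10, 8.24 and 9.25 in naive and 9.88, 9.93 and 11.07 in infested Holstein-Friesian arrays, and at 8.94, 10.00 and 7.74 in naive and 4.98, 5.30 and 8.19 in infested Brahman arrays. Infested Brahman 1 and 2 lay far below all others and infested Brahman 3 lay within the naive range. TYRP1 fell by 2.73 in Brahman animals (adjusted p = 0.035), and the breed difference was -4.17 ± 1.13 (adjusted p = 0.498). The labels do not record coat colour or biopsy site.

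None of the remaining leading genes on the lower side passed. NDRG1, a stress-responsive regulator of differentiation, fell by 0.53 in Brahman animals and rose in Holstein-Friesian animals by 0.86. Its values were 10.39, 10.71 and 10.56 in naive and 11.28, 11.70 and 11.25 in infested Holstein-Friesian arrays, and 11.24, 11.31 and 11.21 in naive and 10.87, 10.51 and 10.81 in infested Brahman arrays. The breeds thus exchanged places, and the difference was -1.38 ± 0.23 (adjusted p = 0.226). Only 3 probe sets passed in both breeds in opposite directions. FKBP14, another prolyl isomerase of the reticulum, was the second, with a rise of 0.43 in Brahman animals and a change of -0.55 in Holstein-Friesian animals, and the third had no gene symbol. None of the 3 passed the breed difference. ARHGEF37 differed by -1.55 ± 0.23 (adjusted p = 0.13) and fell by 1.70 in Brahman animals. MARF1, an RNA-binding regulator, rose in Holstein-Friesian animals by 2.31 and differed by -2.28 ± 0.47, with naive Holstein 3 at 6.47 and the rest of that group at 7.82 and 7.59. ALOX12E, an epidermal lipoxygenase, differed by -1.68 ± 0.38, but its naive groups were 4.14 log2 apart, at 6.84, 6.49 and 7.14 in Holstein-Friesian and 10.94, 10.73 and 11.21 in Brahman arrays. ANGPTL4, an inhibitor of lipoprotein lipase, differed by -1.29 ± 0.28, the nucleotide hydrolase HINT3 by -1.34 ± 0.30 and RAMP1, a partner of the calcitonin gene-related peptide receptor, by -1.40 ± 0.32. TADA2A, an adaptor of histone acetyltransferases, differed by -1.01 ± 0.22, FAM111B by -1.02 ± 0.23 and KCTD11 by -0.79 ± 0.18. The other probe set of the gene gave -0.42 for HINT3, -0.39 for TADA2A and, as the brighter of the pair, -0.57 for RAMP1.

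A breed difference in response is also the gap between infested Brahman and infested Holstein-Friesian animals minus the gap between the naive groups. The infested gap was the larger of the pair for 63.6% of all probe sets, for 74.5% of the 969 with a higher Brahman change and for 72.2% of the 823 with a lower one. It was the larger for 12 of the 15 leading genes on the higher side and 11 of 15 on the lower side. For PCOLCE the infested gap was 1.41 and the naive gap -0.60, for C3 -1.84 and -0.09, and for IGCGAMMA -5.34 and 0.68. For COL21A1 the naive gap of -1.36 exceeded the infested gap of 0.62, and CRABP1, at -1.60 and 1.01, was of the same kind. The infested gap compares animals of equal age, while the naive gap sets 18 against 12 months. The integrity index averaged -3.18 in infested Brahman and -1.57 in infested Holstein-Friesian arrays, against -0.94 and -1.13 in the naive groups. The median SD within a group was 0.272 and 0.226 log2 in these infested groups, against 0.168 and 0.166 in the naive ones. The part of either in the gaps was not tested.

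**Figure D5:**
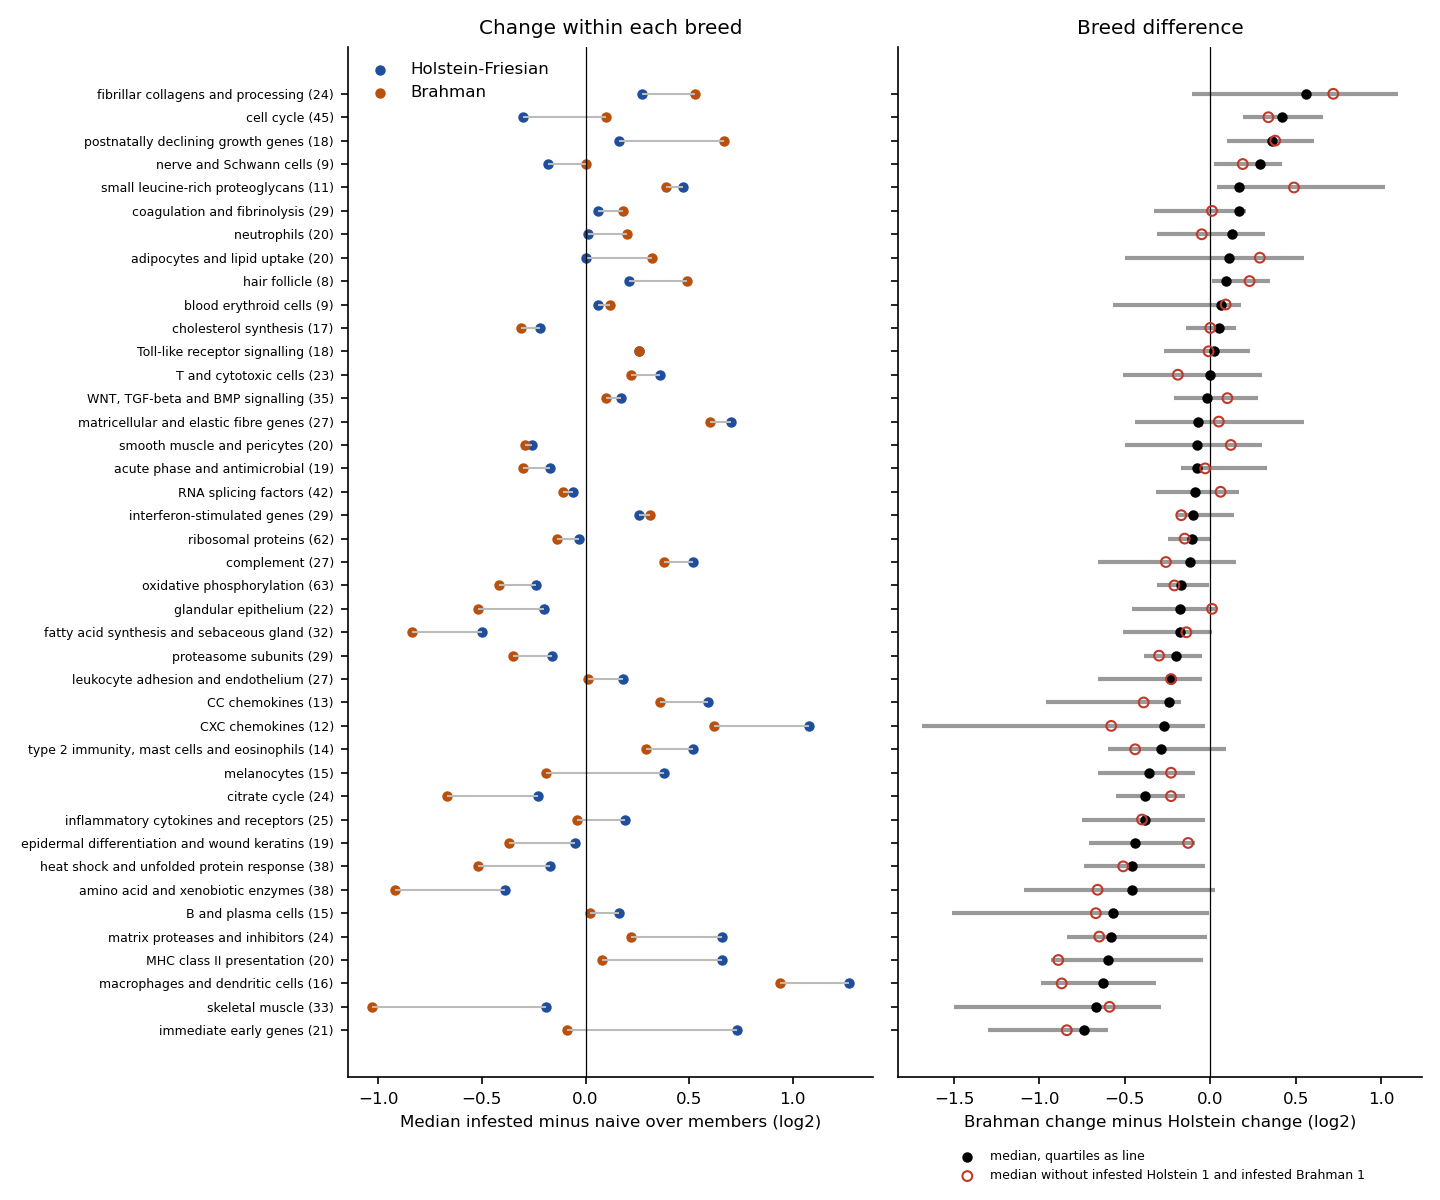
Left: median infested minus naive difference (log2) over the members of 41 gene lists in Holstein-Friesian and Brahman animals, with the number of measured genes in brackets. Right: median breed difference with quartiles as lines, and the median without infested Holstein 1 and infested Brahman 1 as open circles; fibrillar collagens lie highest at 0.56 and immediate early genes lowest at -0.74.

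Across 41 gene lists with 982 measured genes, 13 medians were above 0 and 28 below. Without the 2 low-index arrays 61 of the 982 passed (6.21%, against 4.71% of all probe sets), so the total sets the lists little apart from the background. Over all probe sets 1.4% passed there with a higher and 3.31% with a lower Brahman change. The collagen list had 10 of 24 measured members, all higher. MHC class II genes had 4 of 20, B and plasma cell genes 4 of 15 and citrate cycle genes 4 of 24, all lower. RNA splicing factors had 2 higher and 3 lower of 42. Oxidative phosphorylation genes had 3 lower of 63, near the share of all probe sets. The collagen median was then 0.72, the MHC class II median -0.89 and the macrophage median -0.87. OGN passed there at 2.21 (adjusted p = 0.0401) and MZB1 at -2.43 (adjusted p = 0.00772). With the index as a covariate neither passed (adjusted p = 0.377 and 0.27). Genes for T and cytotoxic cells, Toll-like receptor signalling, cholesterol synthesis and WNT, TGF-beta and BMP signalling had medians between -0.02 and 0.05, and each changed sign under at least 9 of 20 alternative settings. Neutrophil genes, with a median of 0.13 and 0 of 20 members at an unadjusted p under 0.05, changed sign under 5.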

How the data were processed

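The authors deposited log2 signals summarised per probe set by RMA (robust multi-array averaging), as the submitters' processing notes name it. The software is not given in the sources used here. Of 24128 probe sets in the table, 112 controls were left out. Per the platform annotation, 13292 of the 24016 tested probe sets had 1 gene symbol, 86 several and 10638 none. For 13263 probe sets the gene ID was found in the RefSeq gene table. Detection calls were not used here, and precision is limited by the number of arrays.

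A model of 4 group means was fitted to all 12 arrays with limma 3.58.1 (lmFit, eBayes) under R 4.3.3, with residual df of 8 and prior df of 3.03, two-sided tests and Benjamini-Hochberg adjustment at 0.05. The breed difference, the Brahman change and the Holstein-Friesian change are its 3 contrasts. The members, the 41 gene lists and the tests were chosen with earlier results of these data known. Named genes were up to 15 on each side of the breed difference, those of smallest p where fewer passed, up to 4 members of each list with the smallest p, and up to 10 genes called in opposite directions; a list uses the brightest probe set of a gene. Alternatives tried included a filter dropping the 40 percent of probe sets with the lowest mean, median centring, cyclic loess, a trended robust prior, array weights, a replicate block, the integrity index as covariate, removal of each array and of the 2 arrays of lowest index, an adjusted p below 0.1, and, in lists, averaging a gene's probe sets or the members. The procedure was tested on simulated data. No pair of arrays had more than 0.104% of values in common.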

Additional observations from a re-analysis of the deposited data

Results flagged for a closer look

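PCOLCE was singled out because the change with infestation differed between the breeds by a test of the difference itself. The breed difference was 2.01 log2, with a change of 2.85 in Brahman and 0.84 in Holstein-Friesian animals (adjusted p = 0.019 by limma). In each breed all 3 infested arrays lay above all 3 naive arrays. The other probe set of the gene gave 1.19 and did not pass with all arrays.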

How the results depend on the processing

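The single call was kept with the low-signal filter, under which 14410 probe sets were tested, with median centring and with a trended robust prior. Cyclic loess gave 2 calls (OLFML3 and PCOLCE), array weights 648, and removal of the 2 arrays of lowest index 1131. With the index as a covariate the 1 call was DPP4, named after its value was seen. An adjusted p below 0.1 gave 2 calls. Removing single arrays gave 0 to 390, with 13 without infested Brahman 1, 15 without naive Brahman 1, 2 without infested Brahman 3 (CYP2B6, named after its value was seen, and PCOLCE), 1 without infested Holstein 2 and 0 without each of the other 7. Of the 182 named genes the number past the threshold was 2 with cyclic loess, 54 with array weights, 0 with the index covariate, 60 without the 2 arrays, and 0 to 30 without single arrays. Of the list members it was 38 with array weights, 0 with the covariate, 61 without the 2 arrays, and 0 to 14 without single arrays. Calls in opposite directions numbered 1 with the low-signal filter, 5 with cyclic loess, 42 with array weights, 1 with the covariate, 89 without the 2 arrays, and 0 to 22 without single arrays. Under the filter 443 probe sets were higher and 582 lower at an unadjusted limma p under 0.05, against 969 and 823. Signs reversed for EBP (0.36 to -0.13), TAGLN (-2.02 to 0.69) and TCF7 (0.43 to -0.05) with the covariate and for SHH (0.10 to -0.00) with cyclic loess, none of which passed. Median centring shifted the overall median by 0.048 log2. The causes were not tested.

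The titles number the animals of each group alike. Deviations of same-numbered arrays correlated by 0.113 to 0.249 between the Holstein-Friesian groups, where 6 of 6 arrays correlated best with their own number, a hint from the data of pairing there. Between the Brahman groups they correlated by -0.189 to -0.053, with 0 of 6. The numbers were therefore not taken to pair the arrays of the 4 groups. A replicate block gave 0 calls (adjusted p = 0.1 for PCOLCE; 2197 probe sets at an unadjusted p under 0.05), 0 named genes, 0 list members and 2 opposite calls.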

Other observations

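Cell cycle genes, which drive DNA replication and mitosis, lay above 0 for 41 of 45 measured members, with a median breed difference of 0.42 log2 and 4 higher and 0 lower at an unadjusted limma p under 0.05 (4.03% and 3.43% of all probe sets). No member passed. The list level was 0.06, -0.09 and -0.18 in infested Brahman and -0.20, -0.25 and 0.04 in infested Holstein-Friesian arrays, which overlapped. Naive Holstein 2 was the highest array at 0.42 and naive Brahman 3 the lowest at -0.46. CCNA2, a cyclin of S phase and mitosis, differed by 1.35 ± 0.53 (SE) and stood at 7.11, 6.67 and 5.70 in infested Brahman and 5.79, 5.26 and 6.31 in infested Holstein-Friesian arrays. CDT1, which licenses replication origins, fell by 1.18 in Holstein-Friesian animals and differed by 0.87 ± 0.32.

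Growth genes whose expression declines after birth, many of them imprinted, had a median of 0.36 over 18 measured members. At an unadjusted p under 0.05, 3 were higher and 0 lower (4.03% and 3.43% of all probe sets). None passed the breed difference, while 8 rose in Brahman and 3 in Holstein-Friesian animals, against 9.54% and 2.68% of all probe sets. The naive Brahman arrays, from the oldest animals, had list levels of -0.13, -0.12 and -0.11 and the naive Holstein-Friesian arrays 0.12, 0.06 and 0.17. Infested arrays, all from animals of 6 months, had 0.39, 0.50 and 0.47 in Brahman and 0.40, 0.29 and 0.36 in Holstein-Friesian animals, and these overlapped. MEG3, an imprinted long non-coding RNA, showed that pattern: 7.84, 7.05 and 8.09 in naive Brahman arrays, 9.24, 9.57 and 8.89 in naive Holstein-Friesian arrays, and infested gaps of 0.00 between the breeds. Its difference was 1.57 ± 0.53, and it was 0.53 in the lowest of 5 probe sets. Age cannot be told apart from infestation in these values.

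Interferon-stimulated genes had a median of -0.10 over 29 measured members that changed sign under 5 of 20 alternatives. ISG15 differed by 1.15 ± 0.48 and UBA7, the enzyme that activates it, by 0.98 ± 0.33, and neither passed. MAL, a membrane protein of myelin and epithelia, differed by 1.47 ± 0.43, with 8.86, 8.89 and 9.55 in infested Brahman arrays against 8.55, 7.35 and 7.58 in infested Holstein-Friesian arrays. The wound keratin KRT6B had a difference of 2.22 ± 1.34 that came nearest to 0 without naive Holstein 2. It stood at 11.45, 13.08 and 8.03 in naive Holstein-Friesian arrays. TAGLN, a smooth muscle protein, stood at 4.85, 9.33 and 10.02 in infested Brahman arrays, and its difference of -2.02 ± 1.46 was -0.41 without infested Brahman 1, the array of lowest integrity index.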
